A study of Mus musculus with 2 samples.

Results

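A transcribed contig is a stretch of the genome that sequenced RNA covers without a break on 1 strand. The long contigs described here were chosen by length alone, as all entries of at least 3000 bases in the list of contigs deposited for the mouse duodenum, and they are 469 of 374846 contigs. The remaining 374377 contigs are called shorter, and 10263 of these are at least 1000 bases long. Polyadenylated RNA came from the duodenum of adult C57BL/6J mice aged 8 weeks, with tissue of male and female littermates described as pooled. It was depleted of ribosomal RNA, kept above 200 nucleotides and read with its strand in 2 libraries, replicate 1 and replicate 2. There was 1 group and no treatment, and the labels number the libraries as biological replicates but give both the same donor entry. They do not state whether separate animals were used.

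In a mature messenger RNA the introns have been removed, so reads from it cover the exons and leave gaps at the introns. The last exon, which holds the stop codon and most of the 3′ untranslated region in a typical gene, is usually the longest exon. A contig longer than an exon forms where reads also cover the introns between exons, where exons of overlapping transcripts meet, or where transcripts run past an annotated end. The duodenum is lined by enterocytes, which digest and absorb nutrients at a brush border of microvilli, among which sit mucus-secreting goblet cells, and mucus-secreting Brunner's glands lie beneath the mucosa.

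Gene tables held 44272208 expected counts in replicate 1 and 44710137 in replicate 2. All 17 enterocyte markers were detected in both libraries, with a summed TPM (transcript abundance, scaled to the same total in each library) of 14074.7 in replicate 1 and 35364.5 in replicate 2. The libraries stood apart in genes of the exocrine pancreas, a neighbouring organ, and in a list that joins genes of the stomach with those of the duodenum's own Brunner's glands. All 7 markers of the exocrine pancreas were at least 2-fold higher in replicate 1, with summed TPM of 53788.8 against 90.8, and so were all 8 markers of the stomach and Brunner's gland, with 24730.6 against 88.3. Some other lists differed in the opposite direction. Summed TPM was 10.69 in replicate 1 and 373.0 in replicate 2 for fat cell genes, and 1411.8 and 5446.1 for blood genes. In each of these lists the 3 genes with a mean TPM of at least 1 were at least 2-fold higher in replicate 2. So were 4 of 5 Paneth cell genes and 3 of 4 T cell genes. Goblet cell genes were mixed, with 4 of 7 at least 2-fold higher in replicate 2 and 2 in replicate 1. Of 11 smooth muscle genes 3 were at least 2-fold higher in replicate 1 and 0 in replicate 2. Over all 12356 genes with a mean TPM of at least 1, 14.9% were at least 2-fold higher in replicate 1 and 9.63% in replicate 2. In bulk tissue, fewer cells of a type and less RNA per cell cannot be told apart. Xist, an RNA of female cells, had a TPM of 0.01 in replicate 1 and 0.0 in replicate 2. The described share of female tissue was therefore not seen in these values. The contig list pools both libraries, so no contig has a value per library. Since length and level come from the same coverage, every comparison of contigs below is a description with no test.

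The long contigs covered 1792851 of the 101859239 bases in all contigs, or 1.76%, but held 14.9% of the summed coverage. A single contig with the largest value the list can store was a large part of this, and without it the share was 9.38%. The stored coverage of that contig may be cut at the limit, so 14.9% can be too low. The median length of the long contigs was 3560 bases, and 41 contigs reached 5000 bases. The median level, the authors' signal of coverage per base divided by a constant, was 18.0 for long contigs, with quartiles at 9.0 and 41.8. It was 0.408 for shorter contigs and 5.33 for shorter contigs of at least 1000 bases. The highest levels were nevertheless among the shorter contigs, up to 68500, against 11200 among the long ones. The level went up with length in every step, from a median of 0.36 under 500 bases to 10.7 from 2000 to under 3000 bases, 16.4 from 3000 to under 5000 bases and 36.1 from 5000 bases.

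**Figure D1:**
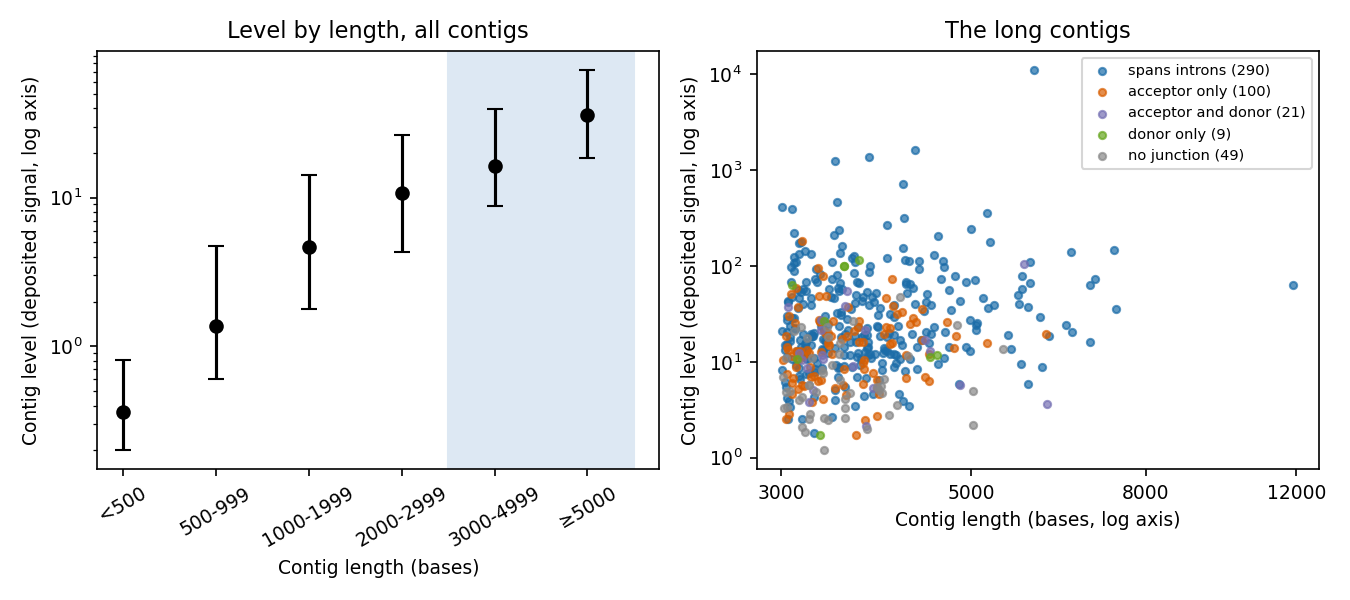
Left, the median level (points) and its quartiles (bars) of all contigs by length in bases, on a log axis, with the long contigs shaded. Right, each of the 469 long contigs by length and level, both on log axes and coloured by the junctions that touch it; the point at 11200 lies alone above all others.

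All 469 long contigs had a deposited score of 0. What the authors call this score is not stated in the files. For junctions, whose list carries the same kind of score, the median was 0.007 with at least 10 reads in each of R1 and R2, the reads of the separate libraries, and 0.158 where all of at least 10 reads were in one of them. Among shorter contigs 18.6% had a score of 0, but among shorter contigs of at least 1000 bases 94.9% did. The score therefore set long contigs apart from the many short ones and much less from those of intermediate length.

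The limit of 3000 bases divides a continuous range of lengths. Just inside it lay an unnamed contig of 3007 bases on chromosome 5 (level 8.23), 1 of 3007 bases at Smpd3 (20.8), 1 of 3009 bases at Prap1 (413), 1 of 3010 bases at Ankrd52 (10.4) and an unnamed 1 of 3016 bases on chromosome 2 (6.94). Just outside it lay contigs of 2997 bases at Ap3d1 (3.97), 2995 bases at Ncln (146) and 2994 bases at Unc119b (11.6), and unnamed contigs of 2991 bases (42.7) and 2989 bases (11.9). The levels on both sides of the limit overlapped.

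Most long contigs held a whole listed junction, which is called spanning introns here, although not every listed junction need be an intron. Splice junctions with at least 10 reads, from the deposited mm9 junction list, lay wholly inside 290 of the 469 long contigs (61.8%). A further 100 contigs (21.3%) had only a splice acceptor at or within them, the arrangement of a last exon. Both an acceptor and an outgoing donor were found for 21 contigs (4.48%), a donor alone for 9 (1.92%), and no junction for 49 (10.4%). Of the shorter contigs of at least 1000 bases 27.4% spanned introns, 21.1% had an acceptor only and 36.2% had no junction. Of all shorter contigs only 1.93% spanned introns and 75.5% had no junction. A contig must be longer than an intron to hold its junction. The median length was 191 bases for all shorter contigs and 1334 bases for those of at least 1000 bases. The median intron of junctions with at least 10 reads was 1049 bases. The length rule thus sets these contrasts at least in part, and how large this part is was not tested.

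**Figure D2:**
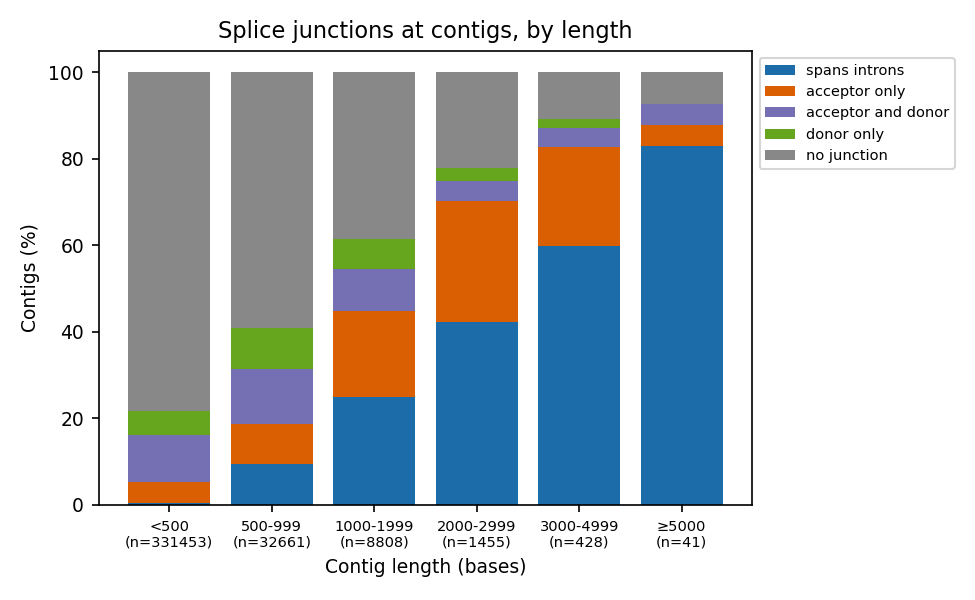
Share of contigs (percent) in each junction class, by contig length in bases, with the number of contigs under each bar. Contigs that span introns made up 0.398% of those under 500 bases, 59.8% of those from 3000 to under 5000 bases and 82.9% of those from 5000 bases. A short contig has little room for a whole intron, so part of this rise follows from length.

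The classes differed in level. The median was 22.9 for contigs that spanned introns (n = 290), 13.6 for those with an acceptor only (n = 100), 11.7 with an acceptor and a donor (n = 21), 26.6 with a donor only (n = 9) and 5.09 with no junction (n = 49). Contigs without a junction thus lay lowest, although all classes overlapped. A junction needed at least 10 reads to count, so a contig of low level can lack one for want of reads. With all listed junctions 86.8% of long contigs spanned introns and 6.40% had an acceptor only. The order of levels can thus come in part from this limit, and how large this part is was not tested.

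The junctions inside long contigs removed short introns. There were 1791 listed junctions, where alternative junctions that overlap each other count separately, so this is not a number of introns. The intron length, from one end of a junction to the other, had a median of 202 bases, and 49.5% were under 200 bases and 12.5% over 1000 bases. Over all 93835 junctions with at least 10 reads the median was 1049 bases, 19.1% were under 200 bases and 51.1% over 1000 bases. An intron inside a contig must be shorter than the contig, which bounds this comparison. Among the 76608 junctions no longer than 5039 bases, the longest inside a long contig, the median was 693 bases and 23.4% were under 200 bases. Of the 1791 junctions, 1107 carried a flag in the list. Over all junctions with at least 10 reads, 99.87% of those with the flag and 52.3% of those without it had the length of an annotated intron of that chromosome and strand. The 1107 flagged junctions had a median of 186 bases and took 97.6% of the 2373555 reads across junctions inside long contigs. Contigs that spanned introns held a median of 4 listed junctions, with 68 contigs holding exactly 1 and 59 holding 10 or more. Inside 35 of the 290 no junction had this flag, and these contigs are still counted as spanning introns.

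**Figure D3:**
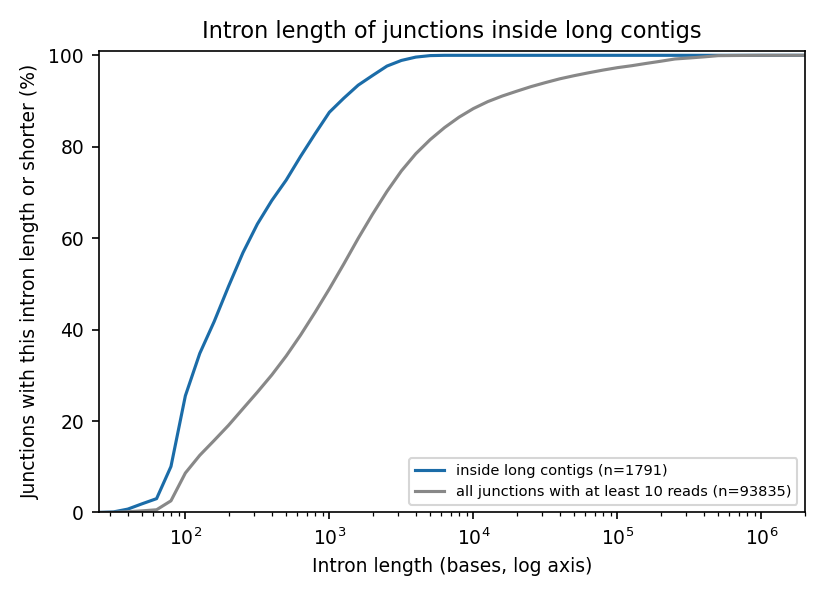
Cumulative share of listed junctions (percent) by intron length in bases on a log axis, for the 1791 junctions inside long contigs and for all 93835 junctions with at least 10 reads. The curve for junctions inside long contigs lies to the left, with medians of 202 and 1049 bases.

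Genes could be given to 364 of the 469 long contigs (77.6%) without an mm9 annotation. The lengths of 2 neighbouring introns and the exon between them were matched to annotated genes of the same chromosome and strand, with no position carried over from mm10. Only 0.867% of the 260798 length sets in the annotation belonged to more than 1 gene, and no long contig matched a gene on the opposite strand. A match shows that a junction of the gene reaches the contig, not that the whole contig belongs to it. A name was found for 261 of 290 contigs that spanned introns, 76 of 100 with an acceptor only, 21 of 21 with an acceptor and a donor, 6 of 9 with a donor only and 0 of 49 with no junction. A further 9 contigs matched several genes, among them a contig at Lime1 and Zgpat and a contig at Tm7sf2 and Vps51 (both chosen after their values were seen). The 364 contigs belonged to 352 genes, of which 342 were protein coding, and 12 genes had 2 long contigs each.

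The genes of the main classes differed in structure. The 251 genes whose contigs only spanned introns had a median annotated span of 15168 bases, a median intron of 573 bases and a longest exon of 1598 bases. The 73 genes whose contigs had only an acceptor had a median span of 36832 bases, a median intron of 2521 bases and a longest exon of 3536 bases. Over the 12356 genes with a mean TPM of at least 1, the medians were 19432 bases, 1403 bases and 1711 bases. An annotated exon of at least 3000 bases was present in 17.1% of the genes of the first class, 78.1% of the second and 23.0% of all. Contigs of the second class hold no listed intron and were chosen at 3000 bases or more, so long exons there follow largely from the choice. The genes differed in level too, with a median of the mean TPM of 117 in the first class, 27.3 in the second and 10.45 over all 12356 genes. The classes count only junctions with at least 10 reads, so the level of a gene also bears on its class.

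Contigs with an acceptor only were close to a single annotated last exon in length. Their median ratio to the longest annotated last exon of the gene was 1.02, and 59 of 76 lay within 20% of it. For contigs that spanned introns the ratio was 2.77, and 33 of 261 lay within 20%. Of the latter, 247 of 261 were longer than any annotated exon of their gene, and 24 covered at least 90% of the gene's span. No contig with an acceptor only reached 90% of the span. The class nearly sets this, since such a contig holds no listed intron and its junction comes from an exon outside it.

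**Figure D4:**
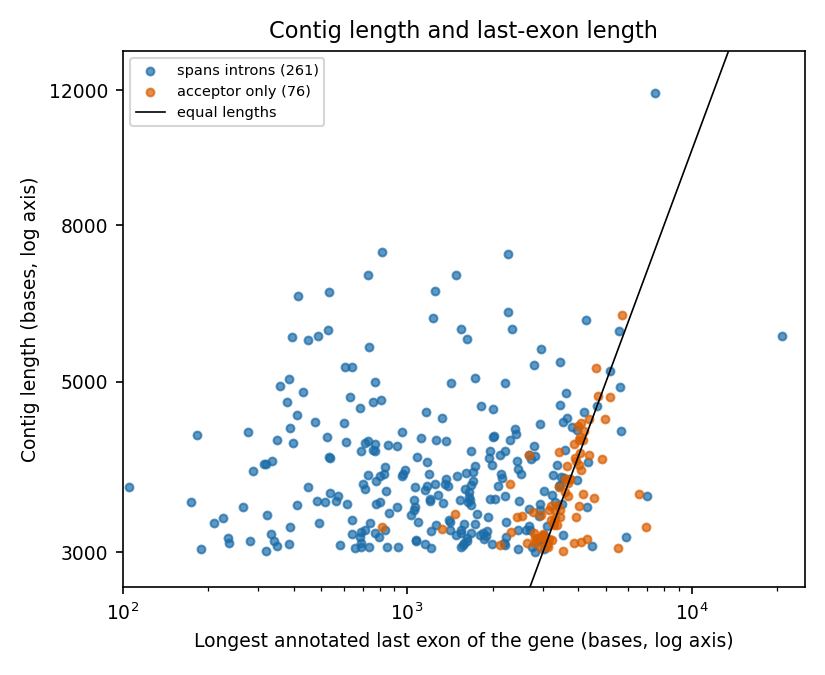
Length of each named long contig against the longest annotated last exon of its gene, both in bases on log axes, for contigs that span introns and those with an acceptor only. The line marks equal lengths; contigs with an acceptor only gather along it, and those that span introns lie mostly to its left.

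Genes of a higher level more often named a long contig. Of the 12356 genes with a mean TPM of at least 1, 352 named a long contig (2.85%). Among genes with an annotated exon of at least 3000 bases the share was 0.781% (14 of 1793) at a mean TPM of 1 to under 10, 8.81% (83 of 942) at 10 to under 100 and 15.7% (16 of 102) from 100. Among genes that span over 10000 bases without such an exon it was 0.172% (5 of 2908), 2.82% (71 of 2517) and 15.1% (84 of 557). Among genes spanning 3000 to 10000 bases without such an exon it was 0% (0 of 796), 2.51% (25 of 998) and 10.3% (48 of 465). In all 3 groups the share went up with the level. A gene can be named only through 2 introns, and every named gene had at least 3 annotated exons. Each of the 2 introns needs a junction with at least 10 reads, so a gene of low level can go unnamed for want of reads. The rise with level can thus come in part from the naming, and how large this part is was not tested. Naming reached 261 of 290 contigs that spanned introns, 76 of 100 with an acceptor only and 0 of 49 without a junction. Shares of genes with and without a long exon are therefore not set against each other. The contig list is made from coverage, so that level and contig length share their source.

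The longest contig lay at Plec, which encodes plectin, a linker between the filament systems of the cell. It ran over 11907 bases (mm9 chr15:76001404-76013310, minus strand) at a level of 63.4. It held 1 junction, with 59 reads, and its length exceeded the longest annotated last exon of Plec, 7412 bases. Plec had a TPM of 44.7 in replicate 1 and 110 in replicate 2. Of the 11 genes in the gene tables from a list of genes with a known giant coding exon, Plec alone was given a long contig. Apob, which encodes the structural protein of chylomicrons, was given none at TPM of 53.0 and 66.5.

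Of the other contigs among the 15 longest, those at Plpp2 and Gsdmd were longer than the annotated span of their gene and the other named ones shorter. At Plpp2, which encodes a phospholipid phosphatase, the contig of 7386 bases (chr10:78989174-78996559) held 6 listed junctions and equalled 100% of the annotated span, at a level of 35.7. At Gsdmd, which encodes the pore-forming gasdermin D of inflammatory cell death, 6463 bases (chr15:75693651-75700113) held 16 listed junctions, 9 of them flagged, and came to 127% of the span, at 24.4. At Dgat1, which encodes an enzyme of the last step of triglyceride synthesis, 6541 bases (chr15:76331616-76338156) held 25 listed junctions, 16 of them flagged, with 71924 reads, at 139 and 65.8% of the span. Dgat1 had a second contig of 3696 bases with only a donor (117), and its TPM was 971 in replicate 1 and 2474 in replicate 2. Btnl5-ps, a butyrophilin-like pseudogene, had 13 listed junctions, 5 of them flagged, in 6895 bases at a level of 16.0. Exoc3l4 had 13 listed junctions in 6881 bases at 62.9, 46.9% of its span. Reads of a pseudogene can be shared with its near-identical relatives, so the value of Btnl5-ps is uncertain.

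The number of listed junctions differed widely among the remaining contigs. Gna11, which encodes an alpha subunit of G proteins, had 2 of them, 7345 bases with 5 junctions at a level of 146 and 6172 bases with 1 junction at 18.5. Zbtb7a, which encodes a zinc finger repressor, had 6012 bases with 1 junction at 29.6. Arrb1, which encodes a beta-arrestin, had 6115 bases with an acceptor only at 19.6, and its longest annotated last exon was 5674 bases. Rai1, which encodes a chromatin-associated protein, had 6142 bases with an acceptor and a donor at 3.67, the lowest level of the 15. Helz2, which encodes a helicase, had 8 listed junctions in 6566 bases (20.4), 45.6% of its span, and AI480526 had 6 in 6050 bases (8.76). A contig of 6985 bases on chromosome 16 with 14 listed junctions (73.3) matched both Sept5 and Gm49601 and was given to neither.

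The contig with the highest level matched no gene. It covered 5920 bases (chr17:39979936-39985855, plus strand) at a level of 11200, and it is the contig at the storage limit of the list. It held 130 listed junctions with at least 10 reads, the most of any long contig, and none carried the flag. These took 15361 reads, few for its level: the Actb contig, at a level of 1380, held 15 junctions with 224547 reads. Its identity was not determined.

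The named contigs with the highest levels included brush border and household genes. Alpi, the intestinal alkaline phosphatase of the brush border, had 4299 bases (chr1:88994564-88998862) at a level of 1630, 119% of its annotated span, with 40 listed junctions and 179001 reads across them. Actb, cytoplasmic beta-actin, had 3797 bases (chr5:143664636-143668432) at 1380, 104% of the span. Smim24, which encodes a small membrane protein, had 3470 bases at 1250, 148% of the span. These 3 contigs were each longer than the annotated gene. Over all named contigs 19 of 364 were, and all 19 spanned introns. In the other classes a junction leads to an exon outside the contig, so the class nearly sets this.

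Lower in the same ranking came Atp5d, an ATP synthase subunit (4165 bases, level 712), and Tff2, a trefoil peptide of mucus-secreting cells (3484 bases, 461). Prap1, a secreted protein of the small intestine, followed with 3009 bases at 413, and Ckb, brain-type creatine kinase, with 3089 bases at 394. Anpep, the brush border aminopeptidase N, had 5222 bases at 356, in a gene of 39257 bases. Eef2, a translation elongation factor, had 4172 bases at 314. The Anpep contig held 8 listed junctions and covered 13.3% of a gene that is large as a whole.

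Among contigs with an acceptor only, those of the highest level were at the following genes (ranked after their values were seen). Ucp2, a mitochondrial carrier, had 3175 bases at 181 beside a second contig of 5256 bases that held 10 listed junctions at 178. Vdr, the vitamin D receptor, had 3307 bases at 96.1, against a longest annotated last exon of 3207 bases. Hnf4a, a nuclear receptor of intestinal and liver epithelium, had 3352 bases at 78.7 and a second contig of 3840 bases with an acceptor and a donor at 5.35. Mxd1, a repressor that pairs with Max, had 4042 bases at 72.6, against a last exon of 4038 bases. Contigs of Cx3cl1, a membrane-bound chemokine, and Nacc1 followed at 59.2 and 51.7. Lct, lactase, had a contig of another kind, 3342 bases with an acceptor and a donor at 27.1. Among contigs with only a donor were those of Srrm2 and Ankrd11 (3547 bases at 99.6 and 3361 bases at 26.6). Spen followed with 3130 bases at 10.6.

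Genes of fixed lists are given next, beside the share of 2.85% over all 12356 genes and of 10.3% to 15.7% in the groups above with a mean TPM of 100 or more. The lists are short and many of their genes have a high TPM, so the counts describe the lists and are not compared between them. Of 17 enterocyte genes 5 had one, namely Ace, Alpi, Anpep, Apoc3 and Lct. Apoc3, an apolipoprotein of lipid-rich particles, had 3456 bases at 209, 128% of its span, and Ace, angiotensin-converting enzyme, had 4570 bases at 207. Of 7 goblet cell genes only Muc2, the gel-forming mucin of the intestine, had one, with 5668 bases holding 10 listed junctions at 50.2. Of 13 cytoskeleton and adhesion genes 4 did: Actn4, an actin cross-linker (3148 bases, 173), Cdhr2, an adhesion protein between microvilli (3327 bases, 82.2), Ezr, ezrin (4983 bases, 27.2), and Myo1a, the brush border myosin (4195 bases at 68.3 and 3057 bases at 42.0).

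Of 12 intestinal transcription factors 3 had long contigs, Hnf4a, Vdr and Klf4, the last with 3075 bases at 97.1 with 3 listed junctions inside. Of 6 long nuclear noncoding RNAs, 4 of them with a mean TPM of at least 1, 1 did: Neat1, the RNA scaffold of paraspeckles, with 5738 bases at 57.8, where the longest annotated exon is 20771 bases. Naming needs 2 introns, so the contig of an RNA without introns could not be named. Of 7 pancreas genes Cel, a lipase of pancreatic juice, had one, and of 8 stomach and Brunner's gland genes Tff2 and Muc6 did. No long contig was given to any of 5 Paneth cell, 11 smooth muscle, 5 B and plasma cell, 4 T cell, 3 fat cell, 3 neuron and glia, 4 endothelium or 3 blood genes with a mean TPM of at least 1. With so few genes a count of 0 is close to the background of 2.85%, and nothing is read from it.

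The genes of long contigs were then compared between the libraries, each library having 1 value per gene. Of the 352 genes, 16 were at least 2-fold higher in replicate 1 (4.55%), where 14.9% of the 12356 genes with a mean TPM of at least 1 were. In replicate 2, 50 were at least 2-fold higher (14.2%), where 9.63% of all genes were. Since genes of long contigs have high levels, the same was counted at a mean TPM of at least 30. There, 46 of 271 genes of long contigs were higher in replicate 2 (17.0%), near the background of 14.5%, and 10 of 271 were higher in replicate 1 (3.69%), under the background of 7.5%. With 1 library on each side these counts have no replicate check. The median log2 ratio of replicate 2 over replicate 1, on the log2(TPM + 1) scale, was 0.19 for the 352 genes and -0.10 for all 12356 genes. These medians are not matched for level, as the median of the mean TPM was 77.45 for the 352 genes and 10.45 for all. Their difference is therefore not read as particular to genes of long contigs. The median log2 ratio was 0.26 for genes whose contigs only spanned introns and -0.03 for those with an acceptor only.

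The widest differences were at genes from the lists of the exocrine pancreas and of the stomach and Brunner's gland (values of this paragraph outside the fixed lists were picked after they were seen). Cel had a TPM of 771 in replicate 1 and 0.94 in replicate 2. Muc6, the gel-forming mucin of gastric and Brunner's glands, had 1176 and 1.77, and Tff2 had 10980 and 24.98. All 15 markers of these lists, these 3 among them, were higher in replicate 1, and their part in these values was not tested. Slc37a2, a sugar phosphate carrier, had 69.9 and 2.51, and Slc11a2, an iron transporter, had 224 and 40.5. Alpi, with 7153 and 1568, differed in direction from the other 4 enterocyte genes with long contigs.

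Higher in replicate 2 were Slc13a2, a dicarboxylate transporter, with TPM of 12.2 in replicate 1 and 361 in replicate 2, and Amn, which anchors the receptor for vitamin B12 uptake, with 82.4 and 1000.3. Among listed enterocyte genes Apoc3 had 648 and 6027, Ace 148 and 840, Anpep 545 and 2878, and Lct 90.3 and 392. Of the 17 enterocyte markers 12 were at least 2-fold higher in replicate 2 and 1, Alpi, in replicate 1. Many genes differed little, such as Ckb with 1293 and 1344 and Klf4 with 172 and 163.

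**Figure D5:**
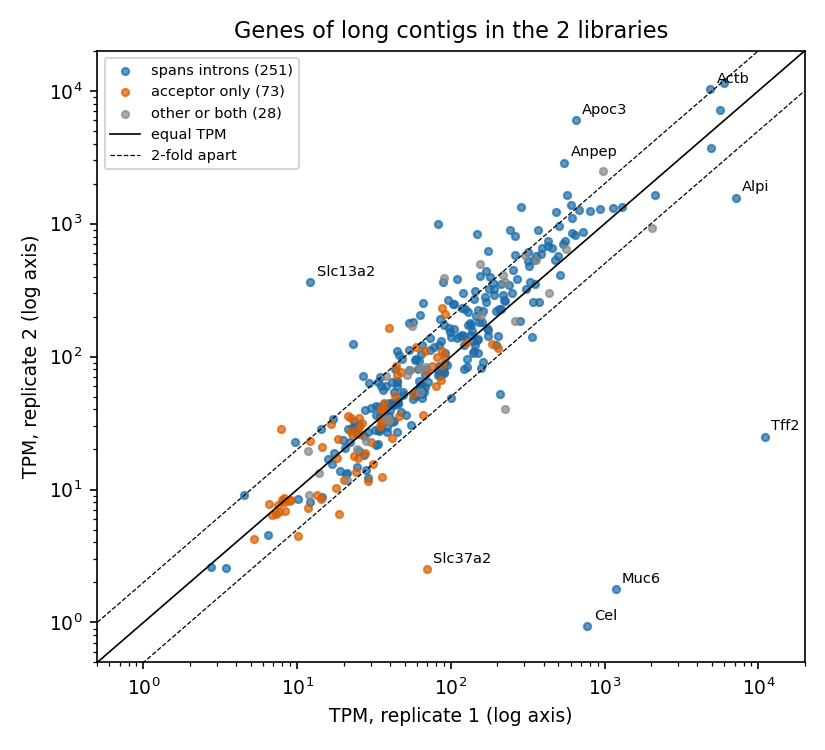
TPM of each of the 352 genes of long contigs in replicate 1 and replicate 2, on log axes, coloured by the class of their contigs. The solid line marks equal TPM and the dashed lines a 2-fold difference; Tff2, Muc6, Cel and Slc37a2 lie far below it, Slc13a2 and Apoc3 above.

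The junction list splits its reads into R1 and R2, which are not tied to a replicate number in the sources used here. Of 354 long contigs with at least 100 junction reads, 31 were at least 2-fold higher in R1 (8.76%), where 19.4% of all contigs with as many junction reads were. In R2, 79 were at least 2-fold higher (22.3%), where 13.9% of all such contigs were. This background holds contigs of every length and is not matched for level. A junction counts at each contig it touches, so a gene can count more than once. The shares are therefore not read as a trait of long contigs. The Tff2 contig had 66929 reads in R1 and 83 in R2, and the Alpi contig 149061 and 30677. The Anpep contig had 2004 in R1 and 15667 in R2, and the longer Dgat1 contig 18176 and 55871. By TPM, Tff2 and Alpi were higher in replicate 1, and Anpep and Dgat1 in replicate 2. The junction reads come from the same libraries as the TPM, so these counts are not a separate observation.

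Contigs on the opposite strand overlapped 120 of the 469 long contigs (25.6%), against 19.4% of the shorter contigs of at least 1000 bases. A longer contig offers more bases to overlap. Where present, the opposite contig had a median of 0.0645 times the level of the long contig, against 0.202 times for shorter contigs of at least 1000 bases. It reached 0.1 times the long contig's level in 49 cases and exceeded it in 11 (named after their values were seen). The highest of these ratios among named contigs were at Hip1r, with a level of 11.2 against 42.7 on the other strand, at Acot11, a thioesterase, with 19.7 against 56.9, and at Fosl2, an AP-1 transcription factor, with 13.8 against 39.2. Foxm1, a transcription factor of dividing cells, had 6.5 against 6.89, which is nearly equal.

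Long contigs often had a close neighbour. The median gap to the nearest contig of the same strand was 64 bases, against 191 bases for shorter contigs, and 282 of 469 (60.1%) had one within 100 bases, against 41.1%. The comparison is with all shorter contigs and is not matched for length or level, as the median levels were 18.0 and 0.408. It is therefore not read as a trait of long contigs. Of the long contigs 225 lay on the plus strand and 244 on the minus strand.

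Long contigs were spread unevenly over the chromosomes. Chromosome 11 held 55, chromosome 2 held 47 and chromosome 7 held 46. Per 1000 contigs of the same chromosome, chromosomes 15 and 10 had the most among the autosomes, 2.25 and 2.12, and chromosome 3 the fewest, 0.356. Chromosome X held 2 long contigs among 7003, one of them at Slc6a8, the creatine transporter, with 5855 bases holding 15 listed junctions, 11 of them flagged, at a level of 109. Chromosome Y held 0 among 148 contigs. The mitochondrial genome held 1 among its 10 contigs, of 3534 bases (chrM:11755-15288, plus strand) at a level of 162.

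Of the 49 long contigs with no junction, none could be given a gene. Their highest level, 47.2, was on chromosome 11, in a contig of 4128 bases (chr11:118854788-118858915, plus strand). It lay 130 bases from the nearest contig of its strand, and had none on the opposite strand. What is annotated there was not determined, as no mm9 annotation was used here.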

How the data were processed

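The members, gene lists and limits were chosen with earlier results of these data known. The authors deposited a contig list and a junction list for both libraries together in mm9, and gene tables per library in mm10. The aligner and the quantifier are named neither in labels nor headers (not given in the sources used here). Contig signal as deposited (the level) is summed coverage divided by length and by a nearly constant number. Checked on the values, this number had a median of 18.13 and ran from 16.19 to 18.32. The deposited score of contigs and junctions is used as a number whose name is not stated; for junctions it is lower where both libraries hold reads. Deposited junction read counts are the sum of R1 and R2 and are not normalised. The deposited summed coverage of a contig is limited to 1073741823, reached by 1 contig. The deposited expected counts per gene are not normalised, and TPM was normalised by the authors for transcript length and library total, per the file headers.

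A contig's length is its end minus its start, and positions are printed 1-based. Junctions with at least 10 reads were placed at contigs with a tolerance of 10 bases. Genes were named by lengths of 2 introns and the exon between (GENCODE M21), a step tested on simulated data. The simulated junctions and contigs were drawn from this same annotation with exact lengths. The test therefore checks the matching step only, and not unannotated junctions or differences between mm9 and mm10. Genes with a mean TPM of at least 1, or contigs with at least 100 junction reads scaled to the totals of 16649380 (R1) and 15750058 (R2), were called at a 2-fold difference. The planned comparison of reads per library used these junction reads, since the contig list has none. Contigs named are the 15 longest, the 10 of highest level, the 5 with most junction reads inside, and 5 on each side of the length limit, with their genes and the members of fixed lists that have a long contig, and 1 of these is not reported here. No p-values were computed. Other length limits, filters, tolerances and scalings were tried. Python 3.11.15, pandas 2.3.3, numpy 2.4.6 and matplotlib 3.10.9 were used.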

Additional observations from a re-analysis of the deposited data

How the results depend on the processing

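With a length limit of 2000 bases there were 1924 contigs and with 5000 bases 41, and joining neighbours at most 100 bases apart gave 1499 contigs of at least 3000 bases. The median level of long over shorter contigs was a ratio of 44.1. It was 88.3 at a limit of 5000 bases, 15.8 at a score of at most 0.1 and 3.38 against shorter contigs of at least 1000 bases. Against the latter, the excess of contigs with a score of 0 was 5.10 instead of 81.4 percentage points, and that of contigs spanning introns 34.4 instead of 59.9. With all listed junctions 86.8% of long contigs spanned introns and 6.40% had an acceptor only. With flagged junctions only (an alternative chosen after seeing the data) these were 54.4% and 26.0%. Contigs on the opposite strand fell to 11.3% with an overlap of at least 200 bases and 10.4% with at least 0.1 times the level. Contigs at least 2-fold higher in R1 numbered 31 and in R2 79. At a fold limit of 1.5 these were 55 and 131, at 4-fold 8 and 22, at a length limit of 2000 bases 102 and 240, and at 5000 bases 2 and 11. The share on chromosome 11 was 11.7%, and 7.32% at a limit of 5000 bases. Naming from 3 introns gave 330 contigs a gene, the same gene for all 329 named both ways. Scaling TPM by the median ratio (chosen after seeing the data) gave 14 genes higher in replicate 1 and 70 in replicate 2, against 16 and 50. No replicate could be left out of the contig list, which pools both libraries, and a test of 1 library against 1 was not made. No paired analysis was possible because there is 1 group. Depth per contig and library is unknown.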
